A study of Homo sapiens with 6 samples.

Results

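The polyamine metabolism genes described here are 10 genes of the deposited table, matched by symbol, of 23354 genes in all. They are the synthesis genes ODC1, AMD1, SRM and SMS, the arginase gene ARG2, the breakdown genes SAT1 and SMOX, and the antizyme control genes OAZ1, OAZ2 and AZIN1. Their RNA was measured in LNCaP, an androgen-responsive cell line of human prostate cancer. In 3 libraries (DHT+WBM) the cells received the androgen dihydrotestosterone (DHT) at 1 nM with an extract of white button mushroom (WBM), Agaricus bisporus, at 3 µL/mL, and in 3 libraries (DHT) they received DHT at 1 nM without the extract, each for 48 h. Both groups therefore carried DHT, and no library without it was analysed here. All libraries come from a single cell line, and the labels do not say whether the DHT cells received a vehicle or whether the triplicates were separate cultures. The study's title puts its question as the effect of the mushroom on androgen receptor signalling.

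Polyamines are small positively charged molecules that bind RNA and DNA and are needed for growth, and the prostate secretes them in unusual amounts. Arginase makes ornithine from arginine, ornithine decarboxylase (ODC1) turns it into putrescine, and spermidine synthase (SRM) and spermine synthase (SMS) extend putrescine to spermidine and then spermine. The extending groups come from S-adenosylmethionine after its decarboxylation by AMD1. SAT1 acetylates spermidine and spermine for export or oxidation, and SMOX oxidises spermine back to spermidine. Antizymes (OAZ1 and OAZ2) bind ornithine decarboxylase, send it to the proteasome and lower polyamine uptake, while antizyme inhibitor (AZIN1) is an inactive relative of ornithine decarboxylase that captures antizyme.

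The promoter windows of the genes with lower RNA in DHT+WBM are shown first, since these genes moved in the same direction. RefSeq windows on GRCh38.p14 run from 250 bases before to 50 bases after a transcript start, and 11 windows were found for 8 of the 10 genes. Sequences run 5′ to 3′ along the gene, and capitals mark 3 motifs, the E-box CACGTG, the cAMP response element TGACGTCA and the CCAAT box in either orientation.
ARG2, chr14:67619670-67619969, plus strand: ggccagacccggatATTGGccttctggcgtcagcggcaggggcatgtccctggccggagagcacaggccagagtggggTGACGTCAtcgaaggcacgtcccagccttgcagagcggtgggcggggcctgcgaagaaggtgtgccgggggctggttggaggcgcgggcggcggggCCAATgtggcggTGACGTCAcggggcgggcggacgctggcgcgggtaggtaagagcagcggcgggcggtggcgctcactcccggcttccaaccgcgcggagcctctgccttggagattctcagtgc
SMS, chrX:21940459-21940758, plus strand: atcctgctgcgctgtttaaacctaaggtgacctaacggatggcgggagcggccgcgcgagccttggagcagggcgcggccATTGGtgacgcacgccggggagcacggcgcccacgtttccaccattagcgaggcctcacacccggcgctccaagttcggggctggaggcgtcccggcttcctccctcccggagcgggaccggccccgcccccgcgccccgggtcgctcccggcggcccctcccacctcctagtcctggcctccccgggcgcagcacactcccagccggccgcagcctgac
SRM, chr1:11059969-11060268, minus strand: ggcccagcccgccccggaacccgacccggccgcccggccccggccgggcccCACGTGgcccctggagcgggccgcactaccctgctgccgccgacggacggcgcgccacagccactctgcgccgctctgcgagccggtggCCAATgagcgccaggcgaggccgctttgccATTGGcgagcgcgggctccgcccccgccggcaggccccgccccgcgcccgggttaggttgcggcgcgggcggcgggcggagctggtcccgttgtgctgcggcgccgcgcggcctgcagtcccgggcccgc
ODC1, chr2:10447963-10448262, minus strand: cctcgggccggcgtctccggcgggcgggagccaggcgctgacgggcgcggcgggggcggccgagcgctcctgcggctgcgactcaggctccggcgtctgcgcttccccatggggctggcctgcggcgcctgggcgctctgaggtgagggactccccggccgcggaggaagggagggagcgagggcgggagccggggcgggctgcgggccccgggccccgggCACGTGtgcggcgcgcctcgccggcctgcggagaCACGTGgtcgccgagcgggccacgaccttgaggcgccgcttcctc

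The ARG2 window held 2 copies of TGACGTCA, which was present in 1.85% of 35116 windows genome-wide and in no other of the 11 windows used. The E-box was in 2 of the 11 windows, against 7.26% of all windows. The SRM window held 1 and this ODC1 window held 2, and the SMS window held none. The ODC1 window shown belongs to the more downstream of its annotated starts. The window of the upstream start, chr2:10448278-10448577, held no E-box and is not shown. Which start these cells use was not tested, so the E-boxes shown may not lie in the promoter in use. The CCAAT box was found in 6 of the 11 windows and in 34.6% of all windows. The steroid receptor half-site AGAACA was in none of the 11 windows, against 14.8% of all windows, both strands counted. The 11 windows were 65.3% to 82% GC, and the shares over all windows were not matched for GC. The 11 also include 2 nearly coincident AMD1 windows, starting at 110874534 and 110874535. The antioxidant element core TGACNNNGC was in 1 of the 11 windows, the upstream one of ODC1, against 13.3%. All motifs were searched on both strands, and the last one begins with the same TGAC as the cAMP response element. These are matches of letters in short windows and describe no binding.

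Antizyme is made only when ribosomes shift frame at a stop codon inside the antizyme mRNA, a step that polyamines promote. That site is shown for both antizyme genes because read counts measure the mRNA and not the shift. In GENCODE v29 transcripts, 5′ to 3′, with the stop codon in capitals, the sites read as follows.
OAZ1-204, bases 415 to 477: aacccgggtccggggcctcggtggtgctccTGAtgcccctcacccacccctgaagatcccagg
OAZ2-204, bases 341 to 403: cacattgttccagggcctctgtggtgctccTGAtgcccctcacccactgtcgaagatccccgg

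Of these 63 aligned bases 51 were identical, and the longest identical run, 27 bases, spanned the stop codon.

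The libraries were of similar depth, between 19127357 and 21490953 counts, with 16511 to 16720 genes detected. Levels are given as CPM (counts scaled to a common total, with TMM factors that correct for composition), and calls are from edgeR's quasi-likelihood test at an adjusted p under 0.05 over 13466 tested genes. All 8 luminal prostate markers were present, at 105 to 1728 CPM in single libraries, and their summed level was 3400 to 3493 CPM in DHT+WBM against 4819 to 5022 CPM in DHT. Most of that difference was in KLK3, at 617 ± 6.25 CPM in DHT+WBM and 1683 ± 75.4 CPM in DHT (SD, n = 3). Of the 8, 4 were lower, KRT8 was higher, while FOLH1 (log2 fold change -0.06), STEAP2 (-0.09) and KRT18 (0.01) were not called. Of the 3 basal markers KRT5 had no count, and the sum was at most 0.0975 CPM in DHT+WBM and 0.287 CPM in DHT. The 3 stromal markers summed to 12.9 to 13.9 CPM in DHT+WBM and 13.7 to 15.3 CPM in DHT. The 3 immune markers summed to 80.6 to 89.6 CPM in DHT+WBM and 21.6 to 23.8 CPM in DHT, nearly all from CD68, a lysosomal protein gene, while PTPRC and CD3E had at most 1 count in any library. The part of these marker differences in the results was not tested.

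Synthesis genes were mostly lower with the extract, and the antizyme genes OAZ1 and OAZ2 were higher. ARG2 fell 2.70-fold, SMS 1.997-fold and SRM 1.32-fold, while OAZ2 was 1.36-fold and OAZ1 1.16-fold higher in DHT+WBM. In all, 4 of the 10 genes were higher (AMD1, SAT1, OAZ1 and OAZ2), 4 were lower (ARG2, SMS, SRM and ODC1) and 2 did not pass the test (SMOX and AZIN1). Over all tested genes 58.2% were called, 29.2% higher and 29% lower, so a call by itself was common in this comparison. The libraries of the groups did not overlap for 8 of the 10 genes, against 62.2% of all tested genes. The median log2 fold change of the 10 genes was 0.08, and of all tested genes 0.00. In bulk RNA, fewer cells expressing a gene and less RNA per cell cannot be told apart.

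**Figure D1:**
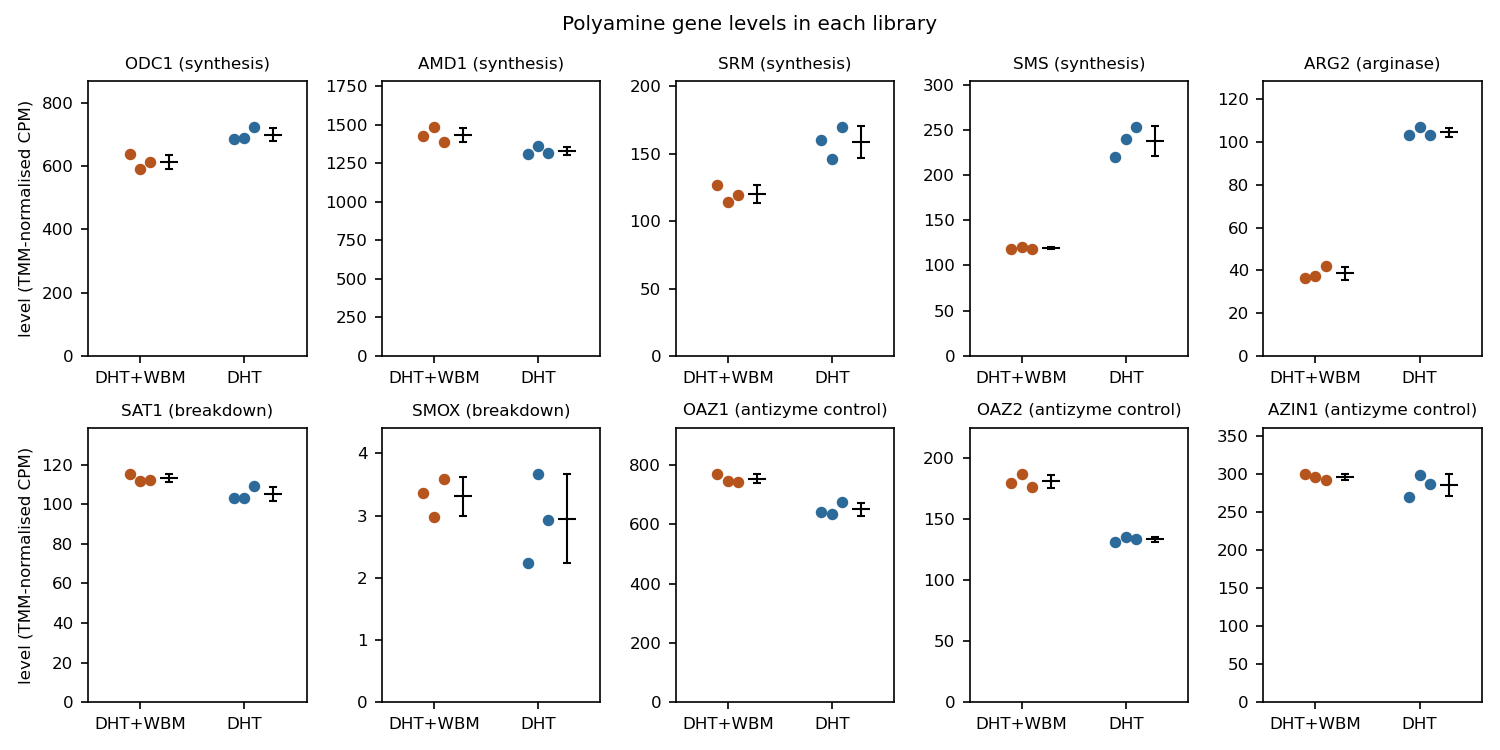
Level of each of the 10 polyamine genes in every library, in TMM-normalised CPM on linear axes from 0, with DHT+WBM left and DHT right. Points are libraries and the bars beside them are the mean ± SD of 3. The points of the groups are apart for every gene except SMOX and AZIN1, with ARG2 at 36.5 to 42.2 CPM in DHT+WBM and 103 to 107 CPM in DHT.

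ARG2 (chromosome 14, 68086579 to 68118436, plus strand, hg19) encodes the mitochondrial arginase and showed the largest change of the 10 genes. Its level was 36.5, 37.5 and 42.2 CPM in DHT+WBM libraries 1 to 3, against 103, 107 and 103 CPM in DHT libraries 1 to 3. Every DHT+WBM library lay far below every DHT library. The log2 fold change was -1.43 ± 0.05 (SE, n = 3 each, adjusted p = 1.60e-24 by edgeR), which ranked 93rd from the lowest among 13466 tested genes. The ARG2 span overlaps VTI1B, on the opposite strand, by 570 bases, and whether counting used strand is not given in the sources used here. ARG1, the liver-type arginase gene, was rare, with 27 to 46 counts in DHT+WBM libraries and 51 to 54 in DHT libraries, and overlaps MED23 on the opposite strand by 10367 bases. ARG1 also fell, with a log2 fold change of -0.61 ± 0.19 (SE, adjusted p = 0.00627 by edgeR), a call that DESeq2 did not make (adjusted p = 0.0571).

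SMS (chromosome X, 21958691 to 22012955, plus strand), the gene of spermine synthase, had 118, 120.3 and 118 CPM in DHT+WBM libraries, against 220.2, 239 and 253 CPM in DHT libraries. The DHT+WBM libraries were nearly alike, and all lay far below each DHT library. Its log2 fold change was -0.998 ± 0.043 (SE, adjusted p = 1.50e-21 by edgeR), and 2.47% of the tested genes had a lower value. SRM (chromosome 1, 11114649 to 11120091, minus strand), which acts a step earlier and makes spermidine, had 127, 114 and 119.6 CPM in DHT+WBM, against 160.3, 146 and 169.7 CPM in DHT. Its groups were also apart, by a smaller margin, with a log2 fold change of -0.40 ± 0.05 (SE, adjusted p = 2.36e-09 by edgeR).

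ODC1 (chromosome 2, 10580508 to 10588453, minus strand) encodes the first enzyme of the pathway proper, a protein known for its very short life. Its RNA was abundant in both groups, at 636, 590.0 and 612 CPM in DHT+WBM libraries and 685, 689 and 722 CPM in DHT libraries. The highest DHT+WBM library stood below the lowest DHT library, and the change was modest, with a log2 fold change of -0.19 ± 0.04 (SE, adjusted p = 6.59e-05 by edgeR). AMD1 (chromosome 6, 111135824 to 111216913, plus strand), whose product supplies the aminopropyl groups for both synthases, was the synthesis gene that rose. It had 1428, 1484 and 1388 CPM in DHT+WBM, against 1312, 1362 and 1317 CPM in DHT. The groups did not overlap, but the gap was narrow and the log2 fold change was 0.11 ± 0.04 (SE, adjusted p = 0.0141 by edgeR). The AMD1 call was lost without DHT+WBM replicate 1, at 0.10 (adjusted p = 0.0624 by edgeR), and without DHT+WBM replicate 2, at 0.08 (adjusted p = 0.160 by edgeR). AMD1 overlaps CDK19 on the opposite strand by 1014 bases.

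**Figure D2:**
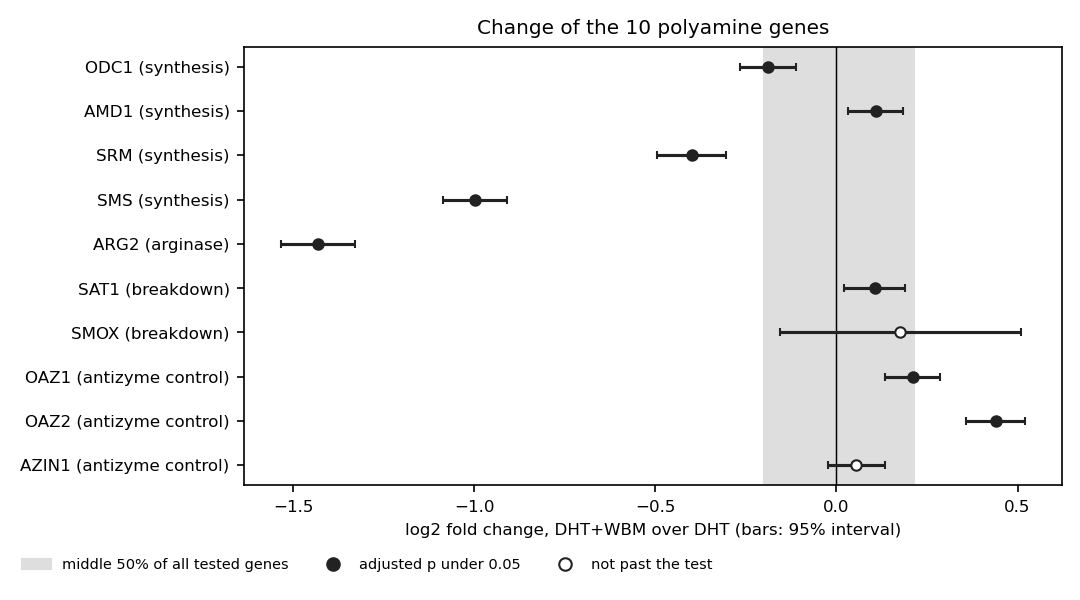
Log2 fold change of the 10 polyamine genes, DHT+WBM over DHT, with 95% intervals not adjusted for the number of genes, in order of role. Filled points passed the test, open points did not, and the grey band is the middle 50% of all tested genes, from -0.20 to 0.21. ARG2, SMS and SRM lie left of the band and OAZ2 right of it, and the points of the others, ODC1 and OAZ1 among them, lie inside it.

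The breakdown genes moved little. SAT1 (chromosome X, 23801275 to 23804327, plus strand), whose enzyme sets the pace of polyamine breakdown, had 115, 111 and 112 CPM in DHT+WBM libraries and 103, 103 and 109 CPM in DHT libraries. The groups were just apart, with a log2 fold change of 0.11 ± 0.04 (SE, adjusted p = 0.0310 by edgeR). This call was not stable when single libraries were left out. It was lost without DHT+WBM replicate 1 (adjusted p = 0.162 by edgeR), replicate 2 (adjusted p = 0.0582 by edgeR) or replicate 3 (adjusted p = 0.0898 by edgeR). It was also lost without DHT replicate 1 (adjusted p = 0.0935 by edgeR) or replicate 2 (adjusted p = 0.0792 by edgeR), and with DESeq2 (adjusted p = 0.0734) or no low-count filter (adjusted p = 0.0745 by edgeR). The log2 fold change stayed between 0.08 and 0.15 in every alternative.

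SMOX (chromosome 20, 4129426 to 4168394, plus strand), the spermine oxidase gene, was the rarest of the 10. It had 69, 58 and 78 counts in DHT+WBM libraries, or 3.36, 2.98 and 3.59 CPM, against 47, 73 and 60 counts in DHT libraries, or 2.24, 3.68 and 2.93 CPM. The groups overlapped, and the log2 fold change of 0.18 had a 95% interval from -0.16 to 0.51 (adjusted p = 0.366 by edgeR). The other breakdown genes on the fixed list, named here after their values were seen, also missed the threshold. PAOX, the peroxisomal polyamine oxidase gene, had 6.64 ± 0.92 CPM in DHT+WBM and 5.58 ± 0.21 CPM in DHT (SD, n = 3), with a log2 fold change of 0.25 (adjusted p = 0.0687 by edgeR). PAOX passed the test without DHT+WBM replicate 3, at 0.35 (adjusted p = 0.0174 by edgeR), under upper-quartile factors (adjusted p = 0.0424 by edgeR) and under library totals alone (adjusted p = 0.0315 by edgeR). SAT2, a relative of SAT1, had 37.7 ± 1.59 CPM in DHT+WBM and 37.4 ± 4.84 CPM in DHT, and the sign of its log2 fold change, 0.01 (adjusted p = 0.895 by edgeR), depended on the libraries used.

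Both antizyme genes among the 10 rose. OAZ2 (chromosome 15, 64979773 to 64995462, minus strand) had 179, 187 and 176 CPM in DHT+WBM libraries, against 131, 135 and 133 CPM in DHT libraries. The groups were well separated, with a log2 fold change of 0.44 ± 0.04 (SE, adjusted p = 4.44e-12 by edgeR). OAZ1 (chromosome 19, 2269520 to 2273487, plus strand), the main antizyme gene of most tissues, had 769.7, 745 and 742 CPM in DHT+WBM, against 642, 634 and 675 CPM in DHT. It was higher in all 3 DHT+WBM libraries, with a log2 fold change of 0.21 ± 0.04 (SE, adjusted p = 1.08e-05 by edgeR). The deposited span of OAZ1 lies wholly within that of SPPL2B on the same strand, which averaged 398 counts a library, so reads shared with it could be lost or credited to it.

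AZIN1 (chromosome 8, 103838536 to 103876397, minus strand), the antizyme inhibitor gene, had 300.3, 296 and 292 CPM in DHT+WBM libraries and 270.2, 298 and 287 CPM in DHT libraries. DHT replicate 1 was low, and the other libraries overlapped. The log2 fold change was 0.05, with a 95% interval from -0.02 to 0.13 (adjusted p = 0.234 by edgeR). AZIN1 passed the test under upper-quartile factors, at 0.09 (adjusted p = 0.0484 by edgeR), and under library totals alone, at 0.10 (adjusted p = 0.0221 by edgeR).

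The rarer relatives of the antizyme genes went in different directions. AZIN2, a second antizyme inhibitor gene found mainly in brain and testis, had 42, 23 and 35 counts in DHT+WBM libraries against 10, 11 and 9 counts in DHT libraries. It was higher in all 3 DHT+WBM libraries, on few reads, with a log2 fold change of 1.71 ± 0.29 (SE, adjusted p = 3.51e-06 by edgeR). OAZ3, known as the testis antizyme gene, fell to 8.18 ± 0.45 CPM in DHT+WBM, against 10.7 ± 0.57 CPM in DHT (SD, n = 3, adjusted p = 0.000511 by edgeR). OAZ3 overlaps MRPL9 and TDRKH on the opposite strand, by 596 and 1224 bases, and both were more abundant.

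Levels of different genes were compared per length, as RPKM (CPM divided by the deposited gene length in kilobases). OAZ1 led in both groups, at 661 ± 13.3 RPKM in DHT+WBM and 571 ± 19.2 RPKM in DHT (SD, n = 3), and ranked 35th of all tested genes by its mean over the 6 libraries. AMD1 followed at 397 ± 13.4 RPKM in DHT+WBM and 369 ± 7.62 RPKM in DHT, the 76th rank. ODC1 was next, at 260.1 ± 9.80 RPKM in DHT+WBM and 297 ± 8.57 RPKM in DHT, the 116th rank. These high places stand against a median of 8.05 RPKM over all tested genes.

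The middle of that order differed between the groups. Over the 3 DHT+WBM libraries, SRM (90.2 to 100.3 RPKM) and OAZ2 (92.3 to 97.8 RPKM) overlapped, as did AZIN1 (67.5 to 69.3 RPKM) and SAT1 (66.8 to 69.1 RPKM), and SMS followed at 64.5 to 65.8 RPKM. Over the 3 DHT libraries, SMS (120.5 to 138 RPKM) and SRM (115 to 134 RPKM) overlapped, and OAZ2 (68.7 to 71.0 RPKM), AZIN1 (62.3 to 68.8 RPKM) and SAT1 (61.6 to 65.4 RPKM) formed a run of overlapping neighbours. SMS thus stood beside SRM in DHT, and below SRM, OAZ2, AZIN1 and SAT1 in DHT+WBM. ARG2 was 19.6 ± 1.54 RPKM in DHT+WBM and 53.0 ± 1.06 RPKM in DHT, and SMOX was last at 1.32 ± 0.12 RPKM in DHT+WBM and 1.17 ± 0.28 RPKM in DHT.

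**Figure D3:**
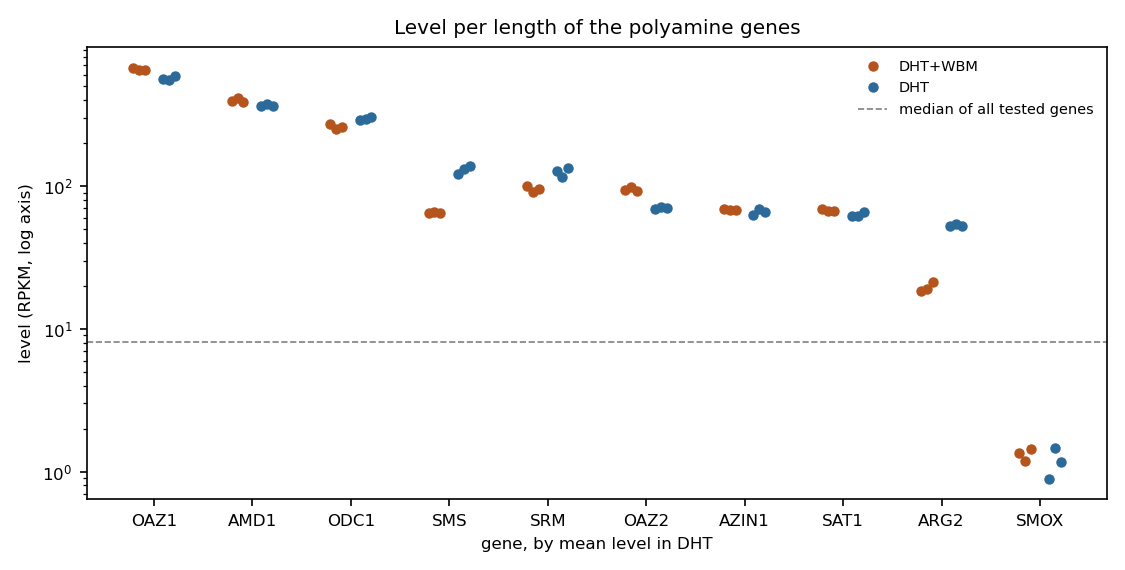
Level per length (RPKM, log axis) of the 10 genes in each library, DHT+WBM left and DHT right of each gene's mark, ordered by mean level in DHT. The dashed line is the median of all tested genes, 8.05 RPKM, and every gene except SMOX lies above it in both groups.

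Ratios of levels put these shifts side by side within each library. ODC1 stood to the sum of OAZ1 and OAZ2 at 0.351, 0.333 and 0.349 in DHT+WBM libraries, against 0.460, 0.466 and 0.462 in DHT libraries, so ornithine decarboxylase RNA was lower relative to antizyme RNA in every DHT+WBM library. The ratio of AZIN1 to the same sum was 0.0900, 0.0908 and 0.0907 in DHT+WBM, against 0.0985, 0.1097 and 0.1000 in DHT, also without overlap. The ratio of SMS to SRM was 0.647, 0.730 and 0.682 in DHT+WBM, against 0.951, 1.14 and 1.03 in DHT. The ratio of AMD1 to SMS was 6.11, 6.25 and 5.96 in DHT+WBM, against 3.02, 2.88 and 2.64 in DHT. Spermine synthase RNA was thus lower relative to both of these synthesis genes in DHT+WBM. Of 8 ratios computed, 7 had groups apart, each with an exact permutation p of 0.1, two-sided, the smallest that 3 against 3 libraries can give (0.114 after Benjamini-Hochberg adjustment over the 8). The remaining ratio, SAT1 to SMOX, was 51.6 ± 4.60 in DHT+WBM and 55.8 ± 13.5 in DHT (SD, n = 3, exact permutation p = 0.8). For ODC1 to OAZ1+OAZ2, ODC1 to AMD1 and AMD1 to SMS the separation follows from the levels given above, since those genes moved in opposite directions. These ratios restate the gene values and are no further test. The share of ratios of other genes with groups apart was not computed, and for single tested genes it was 62.2%.

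**Figure D4:**
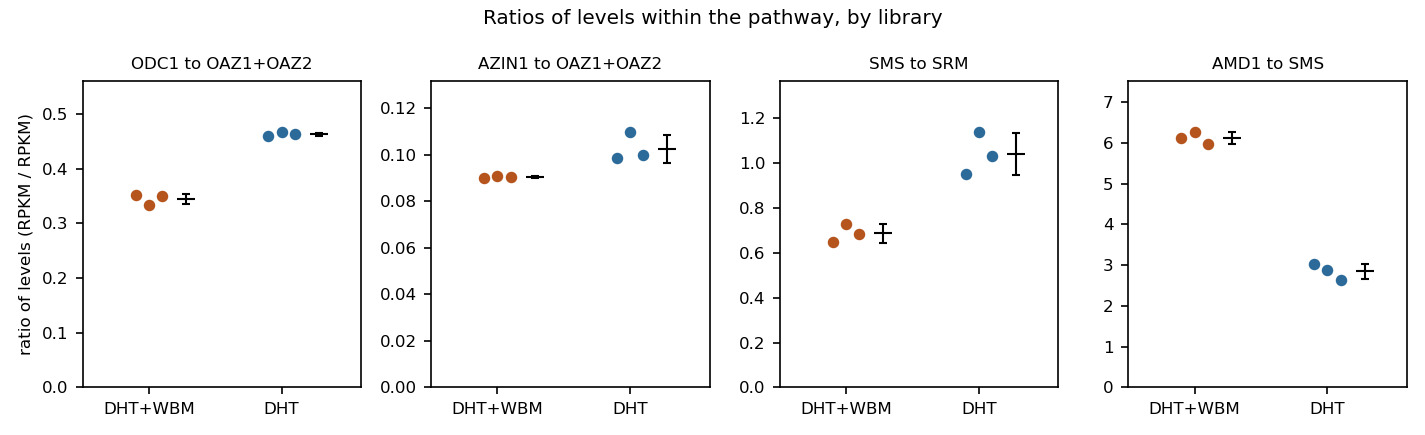
Ratios of per-length levels (RPKM over RPKM, linear axes from 0) in each library for 4 pairs, DHT+WBM left and DHT right, with mean ± SD of 3 beside the points. ODC1 to OAZ1+OAZ2, AZIN1 to OAZ1+OAZ2 and SMS to SRM are lower in DHT+WBM, and AMD1 to SMS is higher, at 6.11 ± 0.14 in DHT+WBM and 2.85 ± 0.19 in DHT.

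Around these 10 genes the listed genes of the wider pathway leaned lower. The lists were chosen with earlier results of these data known, so the counts are no independent test of the pathway. Of 30 other genes on the list, 28 were tested, of which 17 were lower, 6 higher and 5 not called (SLC25A15, SAT2, PAOX, EIF5A2 and MRI1). The median log2 fold change of the 28 was -0.18, against 0.00 for all tested genes, of which 29% were lower. AGMAT and ATP13A4 had too few counts to test. Genes given with values below are the up to 4 of each list with the smallest adjusted p among those past the test, and a few others named after their values were seen.

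Precursor supply was mixed, with 5 of 8 tested genes lower and 2 higher, against 29% lower and 29.2% higher of all tested genes. ASS1, which makes argininosuccinate on the way to arginine, had 171, 169 and 172 CPM in DHT+WBM libraries, against 104, 108 and 109.97 CPM in DHT libraries. It rose with no overlap, by a log2 fold change of 0.67 ± 0.04 (SE, adjusted p = 3.87e-17 by edgeR), whereas ASL, which acts on its product, fell to 24.6 ± 1.34 CPM in DHT+WBM, against 31.7 ± 2.50 CPM in DHT (SD, n = 3). MAT2A, which makes S-adenosylmethionine, fell to 116, 116 and 110.3 CPM in DHT+WBM, against 175, 173 and 174 CPM in DHT, a log2 fold change of -0.61 ± 0.04 (SE, adjusted p = 4.88e-16 by edgeR). ALDH18A1, which starts the route from glutamate to proline and ornithine, fell to 181.5 ± 5.23 CPM in DHT+WBM, against 246 ± 10.6 CPM in DHT (SD, n = 3). OAT, the aminotransferase that links ornithine to the same route and was named after its values were seen, was higher, at 40.2 ± 1.24 CPM in DHT+WBM and 34.2 ± 1.38 CPM in DHT (SD, n = 3, adjusted p = 0.000464 by edgeR). FAM45BP overlaps OAT on the opposite strand by 21674 bases and averaged 586 counts a library.

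Methionine salvage, which recycles the methylthioadenosine released by both synthases, had 4 of 5 genes lower and 0 higher. Of all tested genes 29% were lower and 29.2% higher, and the list is small. MTAP, its first enzyme, fell to 57.3 ± 2.93 CPM in DHT+WBM, against 74.6 ± 4.22 CPM in DHT (SD, n = 3, adjusted p = 2.84e-08 by edgeR), though CDKN2A overlaps it on the opposite strand. ADI1, which acts near the end, fell to 183 ± 2.59 CPM in DHT+WBM, against 252 ± 6.77 CPM in DHT (adjusted p = 4.44e-13 by edgeR). ENOPH1 and APIP, which act between them, had log2 fold changes of -0.26 and -0.21, and DESeq2 did not call APIP (adjusted p = 0.0570). The exception was MRI1, at 0.02 (adjusted p = 0.852 by edgeR).

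Hypusination, the use of spermidine to modify translation factor EIF5A, had 3 of 4 genes lower and 0 higher. This list too is small, and 29% of all tested genes were lower and 29.2% higher. EIF5A itself was 304 ± 9.74 CPM in DHT+WBM and 350.3 ± 20.6 CPM in DHT (SD, n = 3), with a log2 ratio of -0.20 ± 0.04 (SE, adjusted p = 5.86e-05 by edgeR). DHPS and DOHH, the enzymes of the modification, had log2 fold changes of -0.18 (adjusted p = 0.00480 by edgeR) and -0.34 (adjusted p = 0.00256 by edgeR). The paralog EIF5A2 had a log2 fold change of 0.01 (adjusted p = 0.908 by edgeR).

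Polyamine transport genes split, with 3 of 7 tested genes higher and 4 lower, against 29.2% higher and 29% lower of all tested genes. Of these calls, that of SLC12A8, lower at -0.15 (adjusted p = 0.0248 by edgeR), was lost in 8 of 15 alternatives, among them DESeq2 (adjusted p = 0.0781) and library totals alone (adjusted p = 0.130 by edgeR). It was also lost without DHT+WBM replicate 2 (adjusted p = 0.0866 by edgeR) or 3 (adjusted p = 0.0624 by edgeR) and without DHT replicate 1 (adjusted p = 0.0546 by edgeR) or 3 (adjusted p = 0.0843 by edgeR). SLC12A8 overlaps ZNF148 on the same strand by 53579 bases, and ZNF148 averaged 3396 counts a library. The call of SLC47A1, higher at 1.06 on 8 to 24 counts a library, was lost with DESeq2 (adjusted p = 0.0724) and without DHT+WBM replicate 2 (adjusted p = 0.0782 by edgeR). SLC22A3, an organic cation transporter gene that can carry polyamines, had 18.3, 17.9 and 18.9 CPM in DHT+WBM libraries, against 48.8, 48.5 and 48.9 CPM in DHT libraries. It fell without overlap, with a log2 fold change of -1.41 ± 0.06 (SE, adjusted p = 3.53e-22 by edgeR). ATP13A3, a P-type ATPase linked to polyamine uptake, fell to 231 ± 2.91 CPM in DHT+WBM, against 292 ± 16.7 CPM in DHT (SD, n = 3, adjusted p = 4.18e-09 by edgeR). ATP13A2, the lysosomal polyamine exporter gene, rose to 57.5 ± 1.87 CPM in DHT+WBM, against 41.8 ± 3.99 CPM in DHT (adjusted p = 6.57e-09 by edgeR), and SLC18B1, a vesicular polyamine transporter gene, had a log2 fold change of 0.28 (adjusted p = 2.02e-05 by edgeR).

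**Figure D5:**
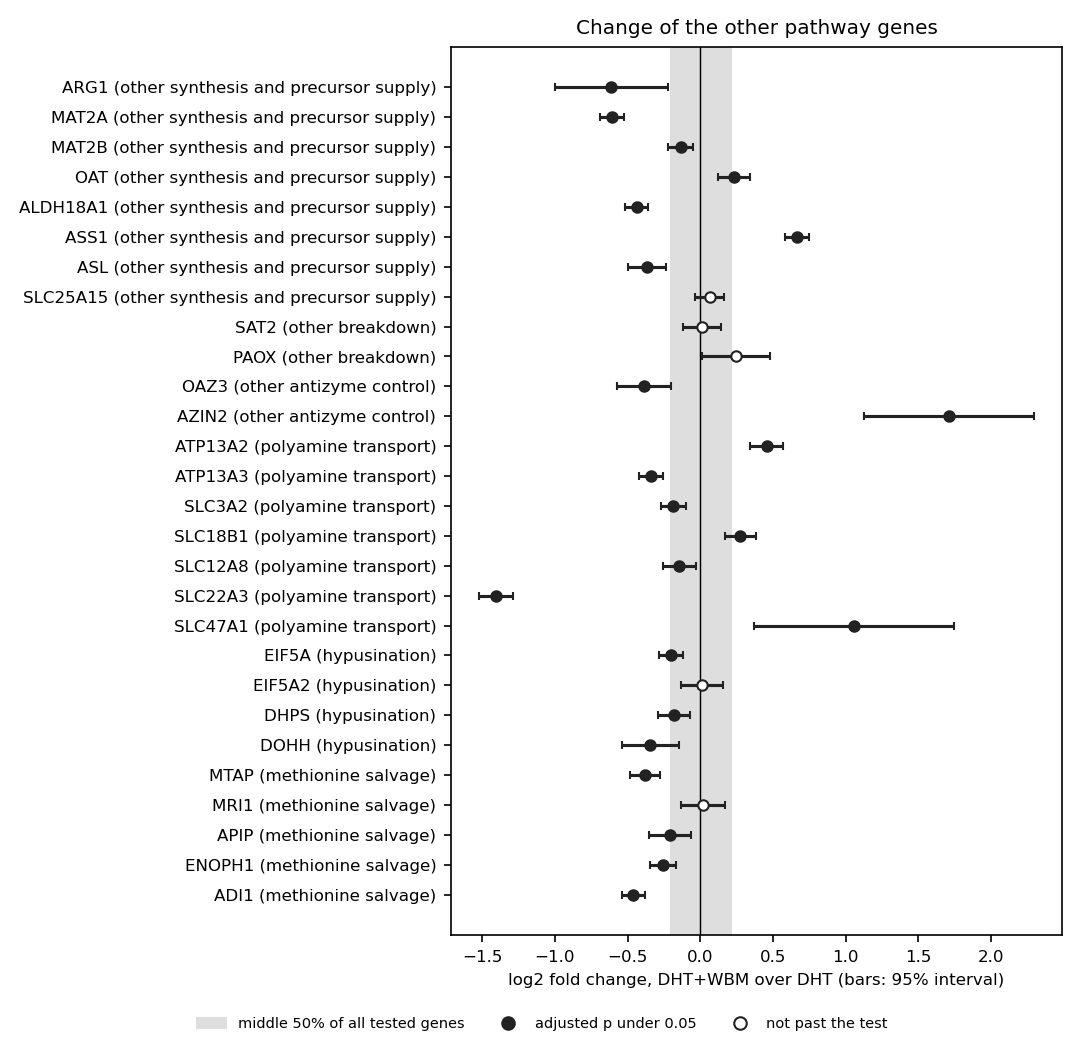
Log2 fold change, DHT+WBM over DHT, of the 28 tested genes of the wider pathway, with 95% intervals not adjusted for the number of genes, grouped by list. Filled points passed the test, open points did not, and the grey band is the middle 50% of all tested genes. SLC22A3 lies farthest left at -1.41, and AZIN2 farthest right at 1.71, with a wide interval from few counts.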

How the data were processed

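RNA was sequenced from LNCaP cells in 3 DHT+WBM and 3 DHT libraries, grouped by sample title, and each column was matched by the code in that title. The table the authors deposited holds unnormalised counts of reads for each gene, with hg19 positions and lengths (in kb, per the file headers). The submitters' processing notes name bcl2fastq 2.18.0.12, STAR 2.6.0, HTSeq 0.6.0, edgeR 3.28.1 and hg19, with no roles. Annotation, strand setting and filters were not given in the sources used here. Reads shared by overlapping genes or near-identical copies may be lost or misassigned.

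The counts went through edgeR 4.0.16 under R 4.3.3: filterByExpr (minimum count 10, total 15), TMM factors, and the quasi-likelihood F-test of DHT+WBM against DHT, two-sided, Benjamini-Hochberg adjusted over 13466 tested genes. The SE is the absolute log2 fold change over the root of F. The common coefficient of variation between libraries was 3.39%. Within each group every pair of libraries differed beyond sampling noise (chi-square per gene 1.73 to 4.33, over genes with at least 20 counts in the pair), so all 6 were used. The labels do not give separate cultures, so p-values reflect only library-to-library spread, possibly technical. Alternatives used DESeq2 1.42.0, limma 3.58.1 (voom), other scalings and filters, a replicate block, an adjusted p under 0.01, and each library left out. A simulation from the real means checked the fit. Of the wider pathway genes, values were given for up to 4 per list with the smallest adjusted p, if called and averaging 1 CPM or more. ARG1, OAT, SLC12A8, SLC47A1, and genes that did not pass, were named after their values were seen. The 10 genes and the lists were chosen with earlier results of these data known.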

Additional observations from a re-analysis of the deposited data

How the results depend on the processing

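The 4 genes called lower (ARG2, SMS, SRM and ODC1) and both antizyme genes called higher (OAZ1 and OAZ2) kept their direction and passed the test in all 15 alternatives. ARG2 ranged from -1.51 to -1.38, SMS from -1.05 to -0.95, SRM from -0.46 to -0.35, ODC1 from -0.22 to -0.14, OAZ1 from 0.19 to 0.26 and OAZ2 from 0.41 to 0.49 on the log2 scale. The number of the 10 genes called higher was 2 at an adjusted p under 0.01, where AMD1 and SAT1 did not pass, and 2 to 4 with single libraries left out, the lowest without DHT+WBM replicate 1 or replicate 2. The counts over the wider pathway and over all genes stayed within 1.5 times.

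Whether the replicate numbers pair the libraries could not be decided from 3 libraries per group. Deviations of same-numbered libraries from their group means correlated at 0.0498, 0.0374 and 0.0192, and of differently numbered ones at -0.0864 to 0.0465. Not every library correlated best with its own number. With the replicate number as a block, 4 genes were higher and 4 lower of the 10, and 4079 and 4030 of all genes, and PAOX passed the test (adjusted p = 0.0499 by edgeR). Genes near 0 changed sign without passing the test: without the low-count filter SAT2 was -0.00044 and EIF5A2 -0.00066, and with single libraries left out SAT2 ranged from -0.092 to 0.074, EIF5A2 from -0.034 to 0.053 and MRI1 from -0.030 to 0.062. The cause was not tested. Fewest counts lay behind SMOX, ARG1, AZIN2 and SLC47A1, each with under 80 in every library.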
